A study of Mus musculus with 50 samples.

Results

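The chromatin regulator genes Kmt2a, Kmt2c, Ezh2, Asxl1, Smarca4, Arid1b and Idh1, were described in the exomes of tumours of the IL6Myc mouse, a transgenic model of multiple myeloma. These genes were selected on the deposited variant calls themselves, since protein-altering variants were already known in them, and every variant listed in them was taken, whatever its effect. They are 7 of 6846 gene symbols in the variant table and held 16 of its 25624 distinct variants. That each of the 7 genes was altered is therefore the ground of the choice and not a result, and the numbers of variants are given as a description with no test.

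The study sequenced genomic DNA from mesenteric lymph node tumours of genotype IL6Myc, labelled as malignant plasma cells, and, as controls, from kidneys of WT Balb/c mice. There were 45 tumours, each from its own mouse, and 5 kidneys, and the labels give no age, sex or treatment. The variant table held columns for 44 tumours, numbered here in the order of the sample records. Neither tumour 4 nor any kidney was analysed here, so inherited and acquired variants cannot be told apart, with the promoters of the transgenes not given in the sources used here. Plasma cell markers cannot be read from DNA, so the cell type label was not checked.

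Each tumour had a read share for each variant called in it, the percentage of its reads with the alternate allele. Private variants are those called in a single tumour. Read depth is unknown, so a read share has no interval of its own, and a tumour without a call had either the unaltered allele or too few reads. Calls per tumour ran from 1898 to 5929 with a median of 3225.5, and private calls from 106 to 1703 with a median of 217.

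Chromatin regulators set which genes a cell can read. Kmt2a and Kmt2c are catalytic subunits of COMPASS-type complexes that methylate lysine 4 of histone H3, a mark of promoters and enhancers. Ezh2 is the catalytic subunit of Polycomb repressive complex 2, which methylates lysine 27 of the same histone and silences genes, and Asxl1 is a cofactor of the Bap1 deubiquitinase that removes the Polycomb mark on histone H2A. Smarca4 is an ATPase motor and Arid1b a DNA-binding subunit of the SWI/SNF (BAF) complex, which slides and ejects nucleosomes. Idh1 makes 2-oxoglutarate, the cofactor of histone and DNA demethylases. In germinal centre B cells Ezh2 is highly expressed and holds back plasma cell differentiation, and genes of these classes are altered in human B-cell lymphomas and myeloma.

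All 16 variants were private, against 12689 of the 25608 variants outside these genes (49.6%). No position and no residue in the 7 genes was therefore altered in more than 1 tumour. By effect, 7 were missense, 1 gained a stop codon, 1 was a frameshift, 6 were intronic and 1 lay in a splice region beside an exon of Idh1. None was synonymous or in an untranslated region. Among private variants outside these genes there were 1237 missense and 749 synonymous calls. The genes were chosen for their protein-altering calls, which favours missense over synonymous ones, so nothing is read from this contrast.

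The 9 protein-altering variants were spread over 8 of 44 tumours (18.2%, exact Clopper-Pearson 95% interval 8.19 to 32.7%, counting error only). Tumours 5, 13, 19, 30, 32, 33 and 36 had 1 each, and tumour 1 had 2, in Smarca4 and in Kmt2a. Tumours 6 and 16 had an intronic variant only, in Kmt2c and in Ezh2. Ezh2 and Smarca4 were each altered in 2 tumours (4.55%, interval 0.555 to 15.5%) and the other 5 genes in 1 tumour each (2.27%, interval 0.0575 to 12.02%). For comparison, 7.32% of 21900 protein-coding genes in the RefSeq gene table had a protein-altering variant, 5.14% had a private one, and 0.589% had 2 or more private ones. Nothing is read from these shares about the 7 genes, since carrying such a variant is why they were chosen.

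Read shares of the protein-altering variants were mostly low. They ran from 3.88% to 49.09% with a median of 7.79% (n = 9), and 7 of 9 lay below 20%. Only Idh1 p.Lys243Asn at 40% and Arid1b p.Asn777Asp at 49.09% reached 20%. The nearest variant below that line was Smarca4 p.Arg1192His at 16.22%, so no value fell between 16.22% and 40%. Outside these genes 466 of 1416 private protein-altering variants reached 20% (32.9%), and their median was 11.1% with quartiles of 5.56% and 30.1%. The exact 95% interval for 2 of 9 (22.2%, 2.81 to 60.0%, counting error only) takes in that 32.9%. Low read shares are therefore not read as a trait of the 7 genes. At a minimum read share of 20%, 1.58% of protein-coding genes had a private protein-altering variant.

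**Figure D1:**
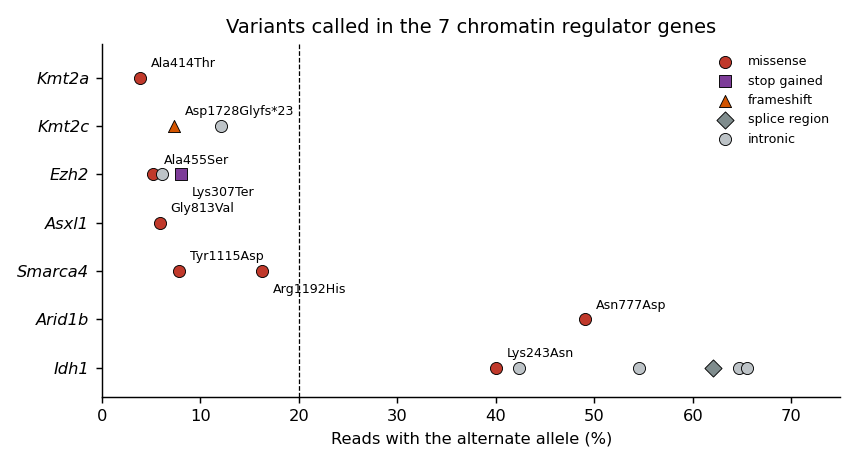
Read share of each of the 16 variants (x axis, percent of reads with the alternate allele) by gene, with marker shape and colour for the effect and names for the 9 protein changes. The dashed line marks 20%: all 9 variants of Kmt2a, Kmt2c, Ezh2, Asxl1 and Smarca4 lie to its left, and those of Arid1b and Idh1 to its right.

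Both histone H3 lysine 4 methyltransferase genes carried 1 protein-altering variant each, at a low read share. Kmt2a, on chromosome 9 (44803355 to 44881352 on GRCm38.p6, the assembly that mm10 names), carried c.1240G>A at position 44849311, p.Ala414Thr, in tumour 1 at 3.88%. This was the lowest read share among the 16 variants, and 8 of the 460 private calls of tumour 1 lay below it. Residue 414 lies in the long amino-terminal part of the protein, ahead of its CXXC domain, its PHD fingers and the catalytic SET domain. The change puts a polar residue in place of a small one and scores 0 in the BLOSUM62 matrix, in which positive scores mark exchanges common between related proteins.

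Kmt2c, on chromosome 5 (25271795 to 25498855), carried a frameshift in tumour 32 at 7.27%, where 37 of 196 private calls had a lower read share. It is an insertion of 59 bases at position 25319052, written as p.Asp1728Glyfs*23. As annotated, the first changed residue is 1728 and codon 23 of the new frame is the stop. Both lie between the amino-terminal PHD fingers and the SET domain at the far end of the protein. As 59 leaves a remainder of 2 when divided by 3, the frame shifts, and the 19 whole codons read within the inserted bases hold 0 stop codons, so the annotated stop lies beyond them. The second Kmt2c variant was intronic, at position 25292747 in tumour 6, at 12.12%.

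The inserted bases contain a perfect inverted repeat, with arms of 14 bases around 12 unpaired bases, have a GC content of 42.4% and hold the palindrome GATC 4 times. Among the other 156 insertions of at least 20 bases the longest such arm was 11 bases, the median was 1, and 1 insertion had an arm of 10 or more. Only 13 of the 156 were at least as long as this insertion, and the shortest cannot hold a pair of 14-base arms. The arms were not compared at equal length, so nothing is read from the difference. No other row of the table shared a stretch of 12 bases with it on either strand. The origin of the inserted sequence was not tested.

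Of the genes on the Polycomb axis, Ezh2 carried a stop codon and a missense change in different tumours. Ezh2 lies on chromosome 6 (47530274 to 47595270). In tumour 19, c.919A>T at position 47547410 gave p.Lys307Ter at 8.0%, and 51 of 455 private calls of that tumour lay below it. In tumour 33, c.1363G>T at position 47544472 gave p.Ala455Ser at 5.19%, above 10 of 186 private calls. Both residues lie ahead of the CXC and SET domains at the carboxy-terminal end, so a protein cut short by a stop at residue 307 would lack the catalytic domain. Neither altered residue lies within the SET domain itself, where the recurrent Ezh2 changes of human lymphoma lie. Alanine to serine is a conservative exchange (BLOSUM62 score 1). The third Ezh2 variant, intronic at position 47530623, was in tumour 16 at 6.12%, so the 3 values of this gene lay within 3 percentage points of each other in 3 tumours.

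Asxl1, on chromosome 2 (153345830 to 153404007), carried c.2438G>T at position 153399966, p.Gly813Val, in tumour 13. Its read share was 5.88%, and 32 of the 361 private calls of that tumour were lower. Residue 813 lies between the amino-terminal domain that binds Bap1 and the carboxy-terminal PHD finger. Both residues fall in the class of small or aliphatic residues used here, but the exchange is unfavourable in BLOSUM62 (score -3). Asxl1 changes in human myeloid disease are mostly truncating, and no truncating variant of Asxl1 was listed in these 44 tumours.

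The SWI/SNF genes held a pair of missense changes in the motor subunit, at 7.79% and 16.22%, and 1 in Arid1b, at 49.09%. Smarca4, on chromosome 9 (21616106 to 21704230), carried c.3575G>A at position 21677478, p.Arg1192His, in tumour 1 at 16.22%, above 98 of 460 private calls. It also carried c.3343T>G at position 21673297, p.Tyr1115Asp, in tumour 36 at 7.79%, above 34 of 179 private calls. By the numbering of the human protein, both residues fall in the carboxy-terminal helicase lobe of the ATPase, which works together with the other lobe to pull DNA around the nucleosome. Tyr1115Asp replaces an aromatic residue by a negatively charged one (BLOSUM62 score -3), and Arg1192His keeps a basic residue (score 0).

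Arid1b, on chromosome 17 (4994297 to 5347656), carried c.2329A>G at position 5279334, p.Asn777Asp, in tumour 30 at 49.09%. This lay above 161 of the 205 private calls of that tumour, whose median was 25%. No other private call of tumour 30 lay within 1 Mb, and the nearest on the chromosome was 12631559 bases away. Residue 777 lies ahead of the ARID domain that binds DNA. The exchange adds a negative charge and is otherwise conservative (score 1).

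Idh1 held more variants than any other of the 7 genes, all at higher read shares than those of Kmt2a, Kmt2c, Ezh2, Asxl1 and Smarca4. It lies on chromosome 1 (65158616 to 65186479) and carried 6 variants, all in tumour 5. The missense change was c.729G>T at position 65165221, p.Lys243Asn, at 40%, which the genetic code allows only as a change of codon AAG to AAT. This is not the active-site arginine that is altered in human gliomas and leukaemias. The 4 intronic variants had read shares of 42.31%, 54.55%, 64.71% and 65.52%. A deletion of a pair of bases in the splice region ahead of the start codon was at 62.07%. All 6 lay between 40% and 65.52%, whereas 9 of the 10 variants of the other 6 genes lay below 20%.

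The Idh1 variants stood within a dense run of calls private to the same tumour. Apart from the 6 Idh1 variants themselves, 79 calls lay within 1 Mb of each of them, and 71 of these were private to tumour 5. With gaps of at most 1 Mb, the run held 341 private variants of tumour 5 between 62783197 and 69844432, a length of 7.06 Mb, and named 31 genes. It contained 17 variants private to other tumours and 11 called in more than 1 tumour. Read shares in the run had a median of 47.8% (quartiles 41.2% and 55.2%), and 99.1% of them reached 20%. Transitions made up 67.7% of the SNVs of the run, with 16 missense and 33 synonymous calls. The other 571 private variants of tumour 5, which take in the further group on the same chromosome beyond the run, had a median of 42.2%, with 71.8% at 20% or more, 60.0% transitions, and 56 missense and 58 synonymous calls. The further group was not set apart, so these values do not show how high read shares were in the rest of tumour 5. Over all tumours, the private variants outside the run had a median of 23.1%, 54.7% at 20% or more, 54.0% transitions, and 1228 missense and 716 synonymous calls. The limits of the run were chosen after the data were seen. Whether the Idh1 variants were inherited was not tested.

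**Figure D2:**
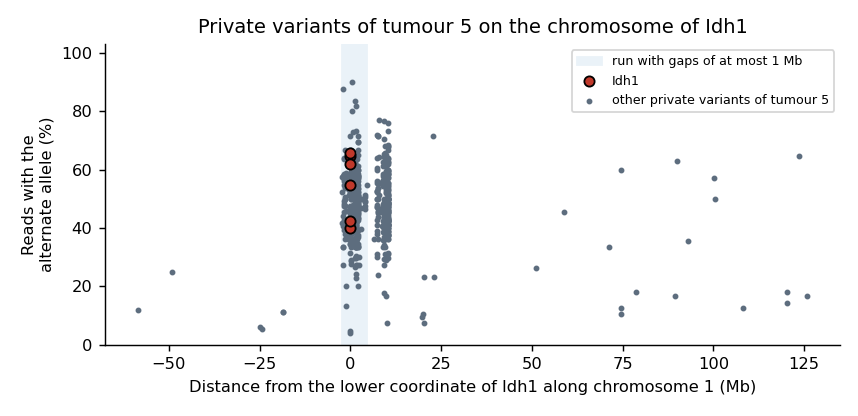
Private variants of tumour 5 on chromosome 1, with the read share (y axis, percent) against the distance from the lower coordinate of Idh1 (x axis, Mb), and the run of 341 variants shaded. The 6 Idh1 variants, in red, sit between 40% and 65.52% inside the run; a further group lies beyond its upper end.

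The other 6 genes showed no such neighbours. For Kmt2a, Ezh2, Asxl1, Smarca4 and Arid1b, the same tumour had no other private call within 1 Mb of the variant. The nearest lay 1623136 bases away for Asxl1 and 27862056 bases away for Smarca4 p.Tyr1115Asp. Each Kmt2c variant had 1 such call within 1 Mb, at 935324 bases from the frameshift and 710852 bases from the intronic change. Both Smarca4 and Kmt2a lie on chromosome 9, where shared SNVs had median read shares of 53.66% in tumour 1 (15 SNVs) and 50.0% in tumour 36 (259 SNVs). On the chromosomes of Kmt2c, Ezh2, Asxl1 and Idh1, these medians ran from 43.33% to 50.0% in the carriers. On chromosome 17 of tumour 30, which carried the Arid1b change, the median was 6.67% over 5 shared SNVs. Why it was lower there was not tested.

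Set against all private calls of the tumour that carried it, each protein-altering variant but that of Arid1b fell in the lower part. The share of private calls with a lower read share ran from 1.74% for Kmt2a to 36.2% for Idh1 among these 8 variants, and was 78.5% for Arid1b. The median over all 9 was 18.9%. The private calls used as the yardstick were of every effect. Outside the chosen genes, private protein-altering variants had a median read share of 11.11%, against 25% for private variants of all effects. A position in the lower part is therefore not read as a trait of the chosen genes. A comparison with private protein-altering calls of the same tumour was not made. Private medians of the carriers ranged from 14.6% in tumour 32 to 45.4% in tumour 5, within the range over all 44 tumours of 12.5% to 45.8%. In tumour 1 the 2 variants, at 3.88% and 16.22%, both lay below its private median of 40.4%.

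**Figure D3:**
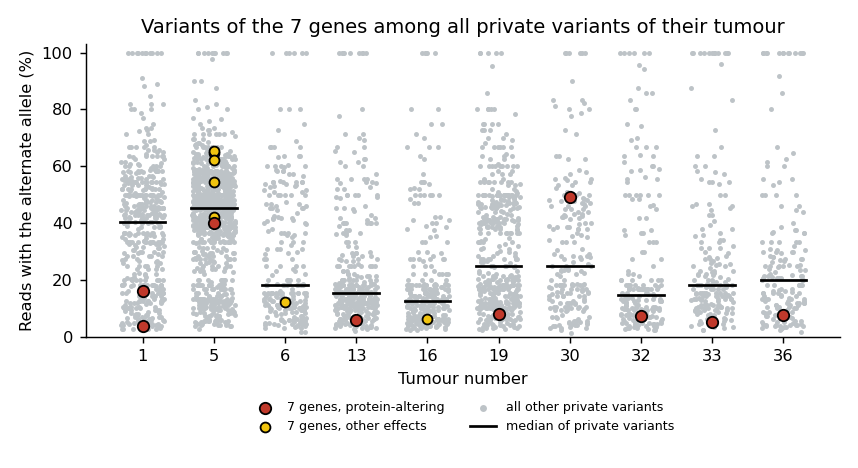
Read share (y axis, percent) of every private variant of the 10 tumours with a variant in the 7 genes (x axis, tumour number). Red points are protein-altering and yellow points other variants of the 7 genes, grey points all other private variants, black bars the median of each tumour. The coloured points lie below the bar in every tumour but 30, and 5, where 4 of 6 lie above it.

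By substitution class, referred to the pyrimidine base, the 8 protein-altering SNVs comprised 3 C>A, 2 C>T, 1 T>A, 1 T>C and 1 T>G changes. The C>A changes were Ezh2 p.Ala455Ser, Asxl1 p.Gly813Val and Idh1 p.Lys243Asn. The C>T changes were Kmt2a p.Ala414Thr and Smarca4 p.Arg1192His. For Arg1192His, both codon changes that the genetic code allows (CGC to CAC and CGT to CAT) place the altered base in a CpG dinucleotide. Over all effects 5 of 14 SNVs were C>A, 2 of them among the 5 Idh1 SNVs of tumour 5, against 1737 of 9889 private SNVs outside these genes (17.6%). The difference was not tested.

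Of the 6 SNVs of the 7 genes below 10%, 3 were C>A, against 520 of 2183 such SNVs elsewhere (23.8%). At 20% or more, C>A made up 478 of 4809 private SNVs outside these genes (9.94%). The 3 low calls were Asxl1 p.Gly813Val in tumour 13, Ezh2 p.Ala455Ser in tumour 33 and the intronic Ezh2 change in tumour 16. In these tumours C>A made up 50.0% of 78, 13.8% of 29 and 42.2% of 102 private SNVs below 10%, against a range of 0 to 59.0% over all 44. The part of this tumour-to-tumour variation in the 3 calls was not tested.

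Other genes of the same pathways, 60 in a list drawn up from textbook complexes, were examined beside the 7. Of the 60, 6 had a protein-altering variant (10%) and 4 had a private one (6.67%). These shares lie near the 7.32% and 5.14% of all protein-coding genes given above, so they are not a result about the list. By pathway, with numbers too small to compare, a protein-altering variant was listed in 2 of 11 other COMPASS and H3K4 genes, 2 of 10 SWI/SNF genes and 2 of 11 Polycomb genes. None was listed in the 7 DNA methylation genes, the 7 H3K36 and H3K9 methyltransferase genes, the 8 acetylation genes or the 6 genes classed as remodellers and others. Among the listed genes with no variant of any effect were Kmt2b, Kmt2d, Arid1a, Idh2 and Eed. Of these, Kmt2b, Kmt2d, Arid1a and Idh2 are close paralogues of Kmt2a, Kmt2c, Arid1b and Idh1, and Eed is a core partner of Ezh2. Finding 0 carriers among 44 tumours leaves room for a share of up to 8.04%, counting error only, and how well the capture covered these genes is not known.

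The 4 listed genes with private protein-altering variants were Setd1a, Men1, Smarca2 and Jarid2. Setd1a, a further H3K4 methyltransferase gene, had 3 of them within 6 bases of each other: p.Gly450Ser in tumour 40 at 78.57%, p.Gly449_Gly450insSerGly in tumour 42 at 22.22% and p.Gly449_Gly450insSer in tumour 30 at 18.18%. Tumour 30 is also the carrier of the Arid1b change. Men1, which encodes the menin subunit that binds Kmt2a, carried p.Phe192Ile in tumour 40 at 7.84%. Smarca2, the paralogue of Smarca4, carried p.Tyr776His in tumour 2 at 42.65%.

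Jarid2, a partner of Polycomb repressive complex 2, carried a pair of frameshift deletions in tumour 2, p.Thr400Argfs*20 at 57.14% and p.Gly401Alafs*7 at 53.33%. They start 3 bases apart and remove 2 and 19 bases, which sum to 21, a multiple of 3. Whether they lie on the same reads cannot be seen in the table. Tumour 2 had the most private calls of all 44, 1703, among them all 13 variants of the histone methyltransferase gene Ehmt1.

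A pair of listed genes carried shared protein-altering variants only. Brd9, a SWI/SNF subunit, carried p.Ala251Val in 7 tumours at read shares from 38.1% to 63.41% (median 52.38%). Kdm6b, an H3K27 demethylase gene, carried an in-frame deletion of 45 bases, p.Pro252_Pro266del, in tumours 10 and 13 at 25% to 33.33%. No variant of the 7 genes was shared in this way.

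The 9 protein-altering variants of the chromatin regulators chosen had a median read share of 7.79%, with 2 of 9 at 20% or more. The 7 private protein-altering variants of the other listed genes had a median of 42.65% and ran from 7.84% to 78.57%, with 5 of 7 at 20% or more. Both sets are small, and tumour 2 alone gave 3 of the 7 values for the other listed genes. These 7 values come from 4 genes, with 3 in Setd1a within 6 bases and 2 in Jarid2 that start 3 bases apart. The difference was not tested.

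**Figure D4:**
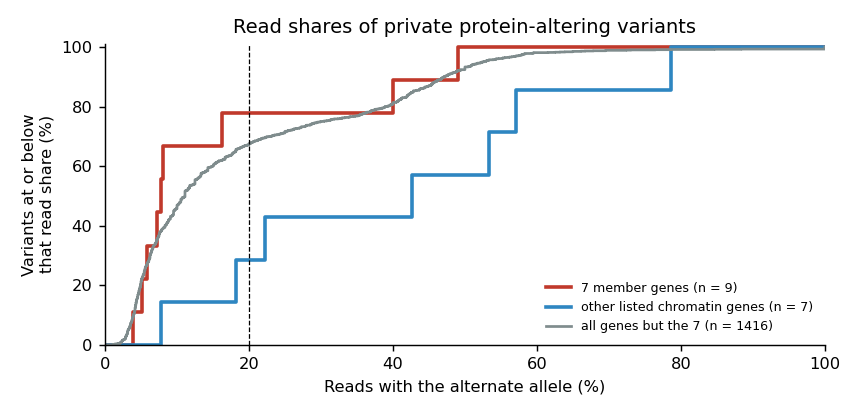
Cumulative share of private protein-altering variants (y axis, percent of variants) by read share (x axis, percent of reads), for the 7 genes in red, the other listed chromatin genes in blue and all genes outside the 7 in grey. At the dashed line of 20% the red curve has reached 7 of 9 variants, and the blue curve 2 of 7.

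Carriers were found across the range of sample titles. Of the 4 tumours titled 1199 to 1293, 2 carried a protein-altering variant of the 7 genes, with 2 of 18 among those titled 1501 to 1592 and 4 of 22 among those titled 1601 to 1628. All private protein-altering variants in these tumours numbered 340, 631 and 454. The labels do not say what the title numbers stand for.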

How the data were processed

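Genomic DNA from a Qiagen kit was enriched for exons with Agilent SureSelect baits, per the labels' protocols, and GATK and the mm10 build are named in the submitters' processing notes. The caller's filters, the aligner and the annotating software were not given in the sources used here. A deposited file gives a percent per tumour, read here from its values as the share of reads with the alternate allele, and a deposited count of tumours per row, which matched the tumour columns in every row used. Read depth is not given, so no interval could be set on a read share.

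Rows with several alternate alleles were left out, leaving 25624 variants in 44 tumours. Protein-altering were missense, stop, start, frameshift, in-frame and essential splice site variants as annotated. A row naming several genes counted for those whose protein change is written out. Codons were derived from the written coding and protein changes with the genetic code; the codon number matched the residue in all 8 SNVs. Exchanges were scored with BLOSUM62 (Biopython 1.88), and intervals are exact Clopper-Pearson (scipy 1.17.1). Helper functions were tested on simulated data. Named are the 7 genes with every protein-altering variant, and listed genes with a private one; Brd9, Kdm6b, Ehmt1 and the genes without variants were named after their values were seen. The members and lists were chosen with earlier results of these data known. No test was run, as no comparison is independent of that choice. Gene positions come from the RefSeq table of GRCm38.p6; Nsd2 and Nsd3 were matched by older symbols.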

Additional observations from a re-analysis of the deposited data

How the results depend on the processing

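No result of the 7 genes changed when every gene named in a row took the variant, when rows with several alternate alleles were kept or when private variants alone were used, and SNVs alone gave 14 variants, 8 of them protein-altering, in 7 tumours. The minimum read share decided the counts. A minimum of 10% left 9 variants, 3 protein-altering ones in 3 tumours and a median read share of 40%. A minimum of 20% left 7 variants, 2 protein-altering ones in 2 tumours and a median of 44.5%, with 831 protein-coding genes altered in place of 1603. These counts fall by construction, since variants below the minimum are dropped. The run around Idh1 held 334 variants with gaps of at most 0.5 Mb and 578 with gaps of at most 2 Mb, both added after seeing the data. The planned alignment with paralogues was not run, as no protein sequences were used here. No paired analysis was possible, because the kidneys came from WT Balb/c mice and no tumour had normal tissue from its own mouse. Only tumours were analysed. Depth is unknown, so low read shares could not be weighed by their number of reads.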
